A study of Drosophila melanogaster with 3 samples.

Results

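The first 2 Mb of chromosome arm 3R, the end of the arm that borders the centromere, hold both BaitA and BaitC, a pair of insulator sites of Drosophila melanogaster used as baits for circular chromosome conformation capture (4C). The members described here are the 392 bins of 5 kb in that stretch with at least 20 probes, of 25695 such bins in the genome, read in the BaitA and BaitC arrays, which are 2 of the 3 arrays of the study. Bins were taken from position 1 to 2000000 by coordinate alone. They were compared in 4 ways: which were high in both arrays, which in one array alone, where one profile passed below the other between the baits, and which genes lie there.

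In 4C, chromatin is cross-linked, cut and ligated, so that DNA lying near a bait in the nucleus becomes joined to it, and inverse PCR with primers facing outward from the bait amplifies what was joined. All 3 arrays were made from control S2-DRSC cells, a cultured Drosophila line, cut with DpnII. Each array compared the amplified 4C product of its bait, in Cy5, with unligated DpnII-cut genomic DNA in Cy3. BaitA lies at 91997 to 92920 and BaitC at 384440 to 385252 of 3R, with centres 292.39 kb apart, and BaitB, whose array is the reference without a 3R bait, lies at 8485115 to 8485894 of 2L. Coordinates are those of the deposited files, which name no build; their length of 27905053 bp for 3R is that of the fifth Drosophila genome release.

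Insulators are DNA elements bound by proteins that limit the action of enhancers on promoters and take part in folding the chromosome into domains. In 4C, signal is usually highest beside the bait and declines with distance along the chromosome, and the study asked which sites lie near each bait. A pair of baits on one arm lets the same DNA be read from 2 viewpoints.

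There was 1 array per bait, so no difference between baits has a replicate error, no test was run and no p is given; each SD below is over bins or probes within an array. Levels are in SD units: the log2 ratio of 4C product over unligated DNA, minus the array's median over all 2157868 probes, divided by the array's SD over the same probes. That SD was 2.45 log2 units in the BaitA array, 1.50 in the BaitC array and 2.50 in the BaitB array, so 1 SD unit is a larger log2 ratio with BaitA than with BaitC. Per the file headers, BaitA was hybridised second on a slide that had carried BaitB first, while the BaitC sample was hybridisation 3 of a different slide. Bait, slide and order of hybridisation cannot be told apart.

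Each array peaked at its own bait and was raised, at a lower level, around the other one. The 17 probes inside BaitA averaged 3.41 ± 0.43 SD units in the BaitA array, 0.34 ± 0.63 in the BaitC array and 1.17 ± 0.32 in the BaitB array. The 15 probes inside BaitC averaged 1.51 ± 0.21 in the BaitA array, 5.04 ± 0.39 in the BaitC array and 0.15 ± 0.29 in the BaitB array. BaitC was therefore well above the median of the BaitA array, whereas the BaitA fragment itself was near the median of the BaitC array and higher in the BaitB array than in the BaitC array. Over the 83 probes within 5 kb of BaitA, the means were 3.26 in the BaitA array, 1.35 in the BaitC array and 0.26 in the BaitB array. Over the 193 probes within 5 kb of BaitC, they were 1.24, 4.29 and -0.03 in the BaitA, BaitC and BaitB arrays. On this wider scale each bait's surroundings stood above 1 SD unit in the array of the other bait and near 0 in the BaitB array.

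The highest bin of the BaitA array in the stretch was 95001 to 100000, beside the bait, at 3.42 over 27 probes. The highest bin of the BaitC array was 380001 to 385000, which holds part of BaitC, at 4.56 over 90 probes. The BaitB array had no such summit: its highest bin, at 1575001 to 1580000, stood at 1.40 over 20 probes.

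**Figure D1:**
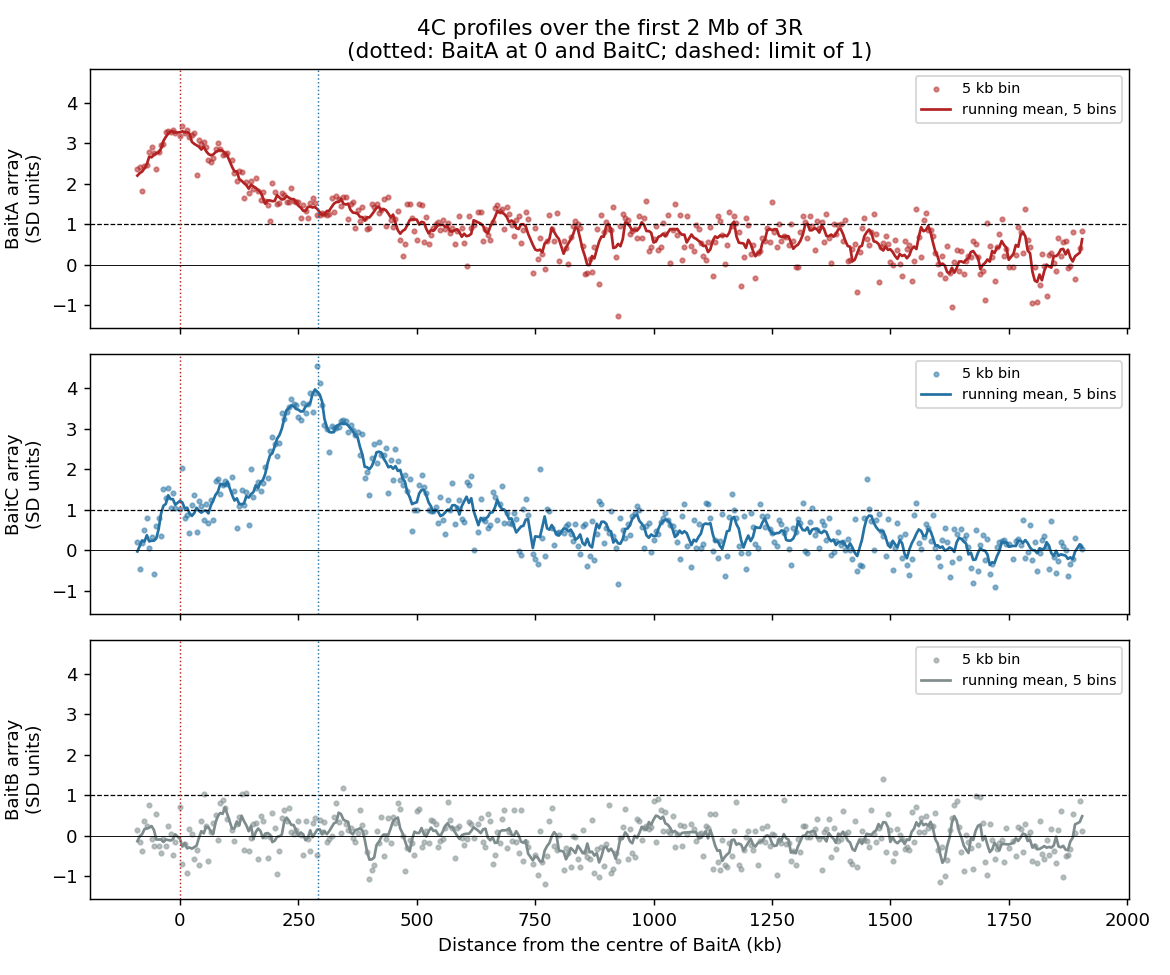
Level of each 5 kb bin (points) and the running mean over 5 bins (line) in the BaitA, BaitC and BaitB arrays against distance from the centre of BaitA in kb. The BaitA array is highest in the bins around 0 and the BaitC array at its own bait, with top bins of 3.42 and 4.56 SD units, while 5 bins of the BaitB array reach the dashed limit of 1.

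A bin was called high at a level of at least 1 SD unit. In the BaitA array 172 of the 392 bins were high, against 4.05% of all bins of the genome and 2.21% of those on 2R, 3L and X, the major arms without a bait. In the BaitC array 130 were high, against 2.51% of all bins and 0.825% of those on the same 3 arms. In the BaitB array 5 were high, against 3.34% of all bins and 1.04% of those on the 3 arms. The stretch was thus rich in high bins for both 3R baits and not for the 2L bait. The lowest bin inside the limit had 1.01 with BaitA and 1.00 with BaitC, the highest bin outside it had 0.998 in both, and 44 bins of the BaitA array and 28 of the BaitC array lay within 0.1 of the limit.

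In all, 102 bins (26.0%) were high in both arrays, against 0.588% of all bins of the genome, 0.0757% of those on 2R, 3L and X and 0.0196% of the 5102 bins of 3R beyond 2 Mb. A further 70 bins (17.9%) were high with BaitA only, against 3.46% of all bins, and 28 bins (7.14%) were high with BaitC only, against 1.92% of all bins. The other 192 bins (49.0%) were high in neither. Bins high in both averaged 1.81 ± 0.69 in the BaitA array, 2.20 ± 0.92 in the BaitC array and 0.13 ± 0.45 in the BaitB array. Bins high with BaitA only averaged 1.60 ± 0.69, 0.42 ± 0.38 and -0.04 ± 0.41 in the BaitA, BaitC and BaitB arrays. Bins high with BaitC only averaged 0.64 ± 0.35, 1.50 ± 0.47 and -0.09 ± 0.44 in the same arrays. The BaitB level was close to 0 in each class. The number high in both fell to 37 at a limit of 1.5 SD units, at which the BaitA-only and BaitC-only counts were 43 and 45. Divided by the median absolute deviation, they were 36 and 43, so the excess of BaitA-only over BaitC-only bins held on the SD scale at a limit of 1 and not under these settings.

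The classes followed one another along the arm. The first 11 bins, 1 to 55000, formed 1 unbroken run that was high with BaitA only. Bins high in both began at 55001, and their longest run, of 44 bins, covered 240001 to 460000, with BaitC inside it. No bin before 460001 was high with BaitC only. Between BaitC and 1 Mb, 44 of 120 bins were high in both, 15 with BaitA only and 19 with BaitC only. From 1 to 2 Mb, 3 of 197 bins were high in both, 35 with BaitA only and 9 with BaitC only. The last bin high with BaitC only ended at 1550000, the last high in both at 1650000 and the last high with BaitA only at 1880000.

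The bins high in all 3 arrays were the 3 that follow, and the share of such bins over the genome was not counted. Bin 220001 to 225000 had 2.30 with BaitA, 1.49 with BaitC and 1.03 with BaitB. Bin 230001 to 235000 had 2.05, 1.45 and 1.06 in the BaitA, BaitC and BaitB arrays. Bin 435001 to 440000 had 1.67, 3.22 and 1.18 in the same arrays. In each, the BaitB level lay just above the limit and below that of both 3R baits.

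Among bins over 20 kb from both baits, those in which the lower of the BaitA and BaitC levels was greatest lay between the baits. They were led by 285001 to 290000, with 2.01 ± 0.39 in the BaitA array, 2.81 ± 0.46 in the BaitC array and 0.57 ± 0.89 in the BaitB array (SD over 88 probes). Next came 240001 to 245000, with 2.06 ± 0.48, 2.00 ± 0.75 and -0.05 ± 0.90 in the BaitA, BaitC and BaitB arrays (90 probes). The widest difference toward BaitA was not at the bait but at 35001 to 40000, where the BaitA array had 2.77 and the BaitC array -0.59, with 48 probes. The widest difference toward BaitC was at the bin of BaitC itself, where the BaitA array had 1.23 and the BaitC array 4.56.

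**Figure D2:**
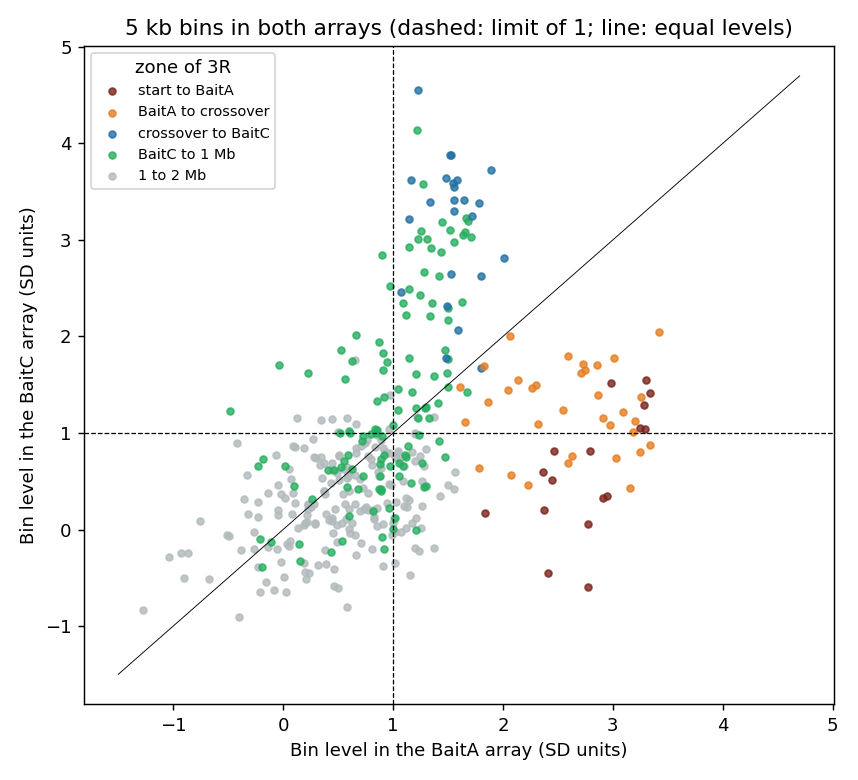
Level of each of the 392 bins in the BaitA array (x axis, SD units) against the BaitC array (y axis, SD units), coloured by zone, with the limit of 1 dashed and the line of equal levels drawn. Bins before the crossover lie to the right of the line with BaitA levels up to 3.42, most bins from the crossover to just past BaitC lie above it with BaitC levels up to 4.56, and most bins beyond 1 Mb lie below 1 in both arrays.

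Going from BaitA to BaitC, the running mean over 5 bins of the BaitA minus BaitC difference changed sign once, at 265 kb of the arm. That crossover is 172.54 kb from the centre of BaitA and 119.85 kb from the centre of BaitC, and 26.3 kb nearer to BaitC than the midpoint at 238.65 kb. Of the 57 bins between the baits, the BaitA array was higher in 33 of 33 before the crossover, and the BaitC array was higher in 23 of 24 after it. The exception was the first bin after it, 265001 to 270000. Over the 10 bins around the crossover, the BaitA array averaged 1.75 ± 0.32, the BaitC array 1.88 ± 0.46 and the BaitB array 0.08 ± 0.40. Both profiles thus met well above their medians, at a place where the BaitB array was near its own.

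The place of the crossover depended on the scale. On the log2 ratio without division by the SD it lay at 300 kb. Under the other settings tried it lay between 260 and 275 kb, on the BaitC side of the midpoint in each. Beyond BaitC, the running difference came back above 0 at 635001 to 640000, 252.65 kb from BaitC.

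The 3 zones up to BaitC differed as follows. In the 17 bins from the start of the arm to BaitA, the BaitA array averaged 2.80 ± 0.43, the BaitC array 0.63 ± 0.65 and the BaitB array -0.01 ± 0.34. In the 34 bins from BaitA to the crossover, the BaitA array averaged 2.60 ± 0.53, the BaitC array 1.25 ± 0.44 and the BaitB array 0.14 ± 0.55. In the 24 bins from the crossover to BaitC, the BaitA array averaged 1.54 ± 0.23, the BaitC array 3.16 ± 0.71 and the BaitB array 0.08 ± 0.42. The BaitA minus BaitC difference was therefore 2.17 ± 0.51, 1.35 ± 0.71 and -1.62 ± 0.79 in these 3 zones, where the BaitB mean was at most 0.14. Which zone differed most depended on the scale: divided by the median absolute deviation, the difference was 1.63 from the start to BaitA and -1.73 from the crossover to BaitC.

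Beyond BaitC the arrays came closer to each other. In the 120 bins from BaitC to 1 Mb, the BaitA array averaged 0.95 ± 0.47, the BaitC array 1.33 ± 1.02 and the BaitB array -0.04 ± 0.47, and the BaitC array was higher in 75 bins. This direction depended on the division by the array's SD: on the log2 ratio the BaitA minus BaitC difference of this zone was 0.33 rather than -0.38. In the 197 bins from 1 to 2 Mb, the BaitA array averaged 0.50 ± 0.54, the BaitC array 0.29 ± 0.48 and the BaitB array -0.06 ± 0.46, and the BaitA array was higher in 127 bins. The spread over bins in these outer zones was larger than the difference between the arrays.

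The BaitA array also stood above the BaitC array at the centromere-proximal ends of arms without a bait. Over the first 1000 kb of 2R, next to the centromere, it averaged 0.82 ± 0.30 in the BaitA array, 0.28 ± 0.31 in the BaitC array and 0.56 ± 0.32 in the BaitB array. Over the last 1000 kb of 3L, also next to the centromere, the means were 0.74 ± 0.31, 0.34 ± 0.29 and 0.45 ± 0.32 in the BaitA, BaitC and BaitB arrays. The gap between the arrays there was at least as large as in the zone from 1 to 2 Mb of 3R, and its part in the higher BaitA levels far from the bait was not tested. Bins high in both arrays were nearly absent there, at 0 of 184 on 2R and 1 of 175 on 3L. They were also few from 1 to 2 Mb of 3R, at 3 of 197, but not from BaitC to 1 Mb, at 44 of 120.

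**Figure D3:**
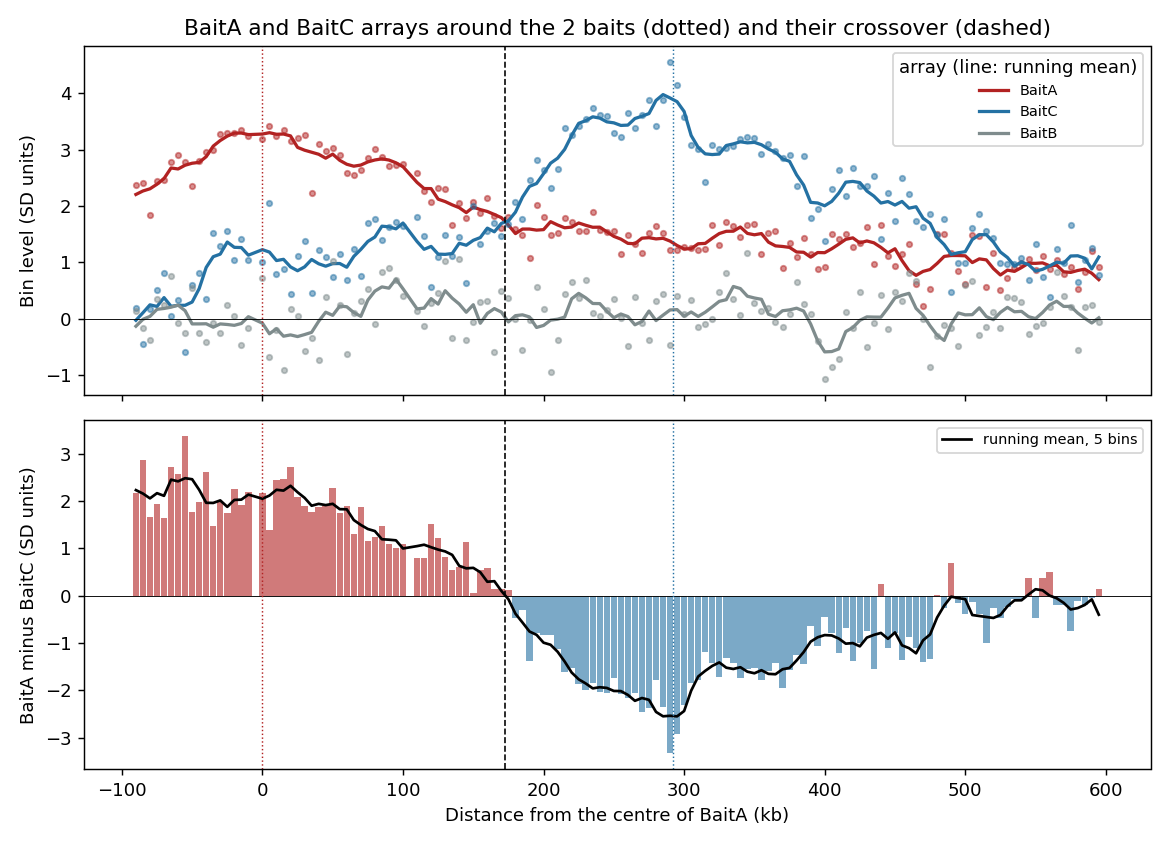
Upper panel: bin levels (points) and running means over 5 bins (lines) of the BaitA, BaitC and BaitB arrays in SD units against distance from the centre of BaitA in kb. Lower panel: the BaitA minus BaitC difference per bin (bars) and its running mean (line), which passes below 0 once between the baits, 172.54 kb from BaitA, and stays near or below 0 until 252.65 kb beyond BaitC.

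On the side away from the centromere, the raised stretch of BaitA was longer than that of BaitC. The running mean of the BaitA array fell below 1 SD unit 460.04 kb from the bait on the side away from the centromere, and it stayed above 1 over the 89.959 kb to the first bin of the arm. The running mean of the BaitC array fell below 1 at 232.35 kb toward the centromere and at 242.65 kb away from it. The extent around BaitA was 300.04 kb when levels were divided by the median absolute deviation instead of the SD. BaitC itself lies inside the raised stretch of BaitA, and the BaitC array was back above 1 over parts of the neighbourhood of BaitA.

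Within 200 kb of the own bait, on the side away from the centromere, both arrays had like levels in SD units. At 0 to 20 kb the BaitA array averaged 3.30 ± 0.11 and the BaitC array 3.45 ± 0.52, over 4 bins each. The BaitA bins include the one that holds the bait. The highest BaitC bin, at 4.56, lies on the other side of its bait's centre and is left out. At 50 to 100 kb the means were 2.79 ± 0.17 with BaitA and 2.82 ± 0.44 with BaitC, over 10 bins each. At 100 to 200 kb they were 1.96 ± 0.40 with BaitA over 19 bins and 1.97 ± 0.54 with BaitC over 20 bins. Toward the centromere the BaitC array was the higher one, at 3.93 against 3.29 at 0 to 20 kb and 3.46 against 2.94 at 20 to 50 kb. On the side away from the centromere, the near-equal levels belong to the SD scale. On the log2 ratio the BaitA array was higher by 2.91 at 0 to 20 kb and by 1.86 at 100 to 200 kb. Divided by the median absolute deviation, it was lower by 0.61 and 0.28 at those distances.

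Farther out the BaitA array was the higher one on each of the 4 scales tried. At 200 to 500 kb from the own bait it averaged 1.34 ± 0.32 over 60 bins, against 0.89 ± 0.55 over 58 bins in the BaitC array. At 500 to 1000 kb the means were 0.79 ± 0.49 with BaitA and 0.45 ± 0.45 with BaitC. At 1000 to 1600 kb they were 0.63 ± 0.45 with BaitA and 0.18 ± 0.47 with BaitC, over 119 bins each. The differences of 0.45, 0.34 and 0.44 SD units each lay below the larger of the SDs over bins. The inner end of 2R, with 0.82 in the BaitA and 0.28 in the BaitC array as given above, differed by a like amount.

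**Figure D4:**
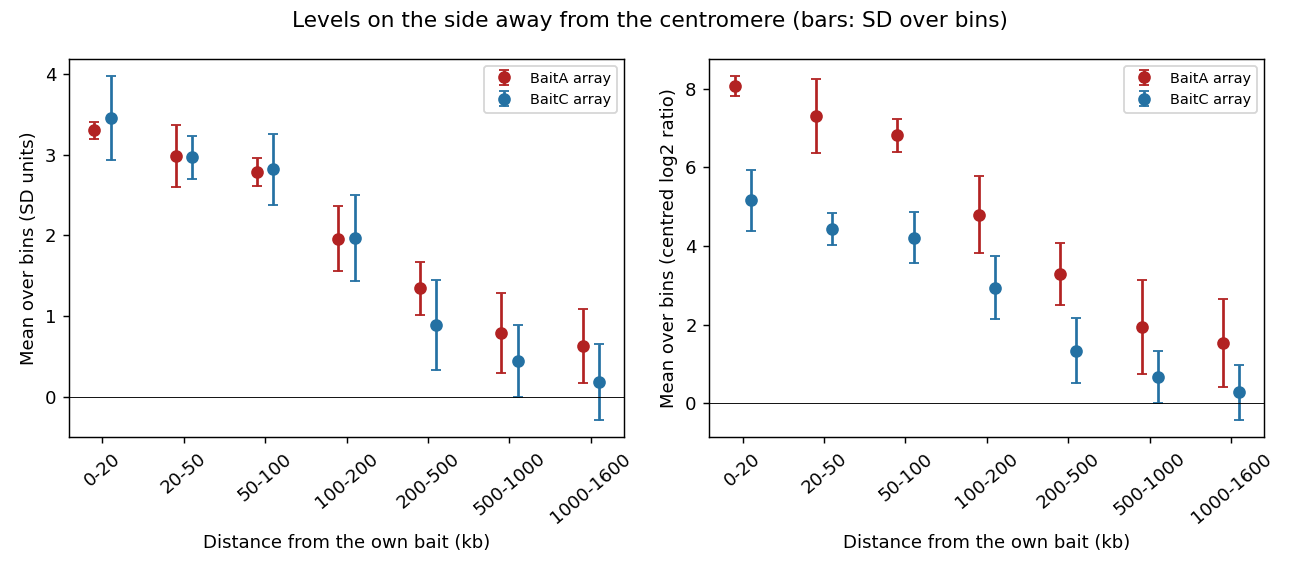
Mean bin level against distance from each array's own bait in kb, on the side away from the centromere, for the BaitA and BaitC arrays, in SD units (left) and as centred log2 ratio (right); bars are the SD over bins. In SD units the arrays lie together up to 200 kb and the BaitA array is higher from 200 kb on, while on the log2 ratio the BaitA array is higher at each distance.

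Each profile was also compared on both sides of its own bait. The BaitC array was higher toward the centromere than away from it close to the bait: 3.93 ± 0.47 against 3.45 ± 0.52 at 0 to 20 kb, 3.46 ± 0.18 against 2.97 ± 0.27 at 20 to 50 kb and 3.14 ± 0.49 against 2.82 ± 0.44 at 50 to 100 kb. At 100 to 200 kb the order was turned, with 1.53 ± 0.46 toward the centromere and 1.97 ± 0.54 away from it. The BaitA array had 3.29 ± 0.05 toward the centromere and 3.30 ± 0.11 away from it at 0 to 20 kb, and 2.50 ± 0.34 against 2.79 ± 0.17 at 50 to 100 kb. The sides of BaitA differed by less than the larger SD over bins at these distances. Those of BaitC did so too at each distance given, except at 20 to 50 kb.

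Read in blocks of 50 kb, the BaitC array did not decline steadily toward BaitA. Its block means, going from BaitC toward the start of the arm, were 3.37 ± 0.30 at 300 to 350 kb, 2.05 ± 0.48 at 250 to 300 kb and 1.29 ± 0.46 at 200 to 250 kb. They were then 1.39 ± 0.42 at 150 to 200 kb, 0.93 ± 0.32 at 100 to 150 kb, 1.25 ± 0.47 at 50 to 100 kb and 0.24 ± 0.48 at 0 to 50 kb. The block that holds BaitA thus stood above the one at the start of the arm by more than the SD over its bins, and all 10 bins of that first block were high with BaitA only. In the same 7 blocks the BaitA array averaged 1.59, 1.68, 2.10, 2.74, 3.05, 3.22 and 2.51, a steady gain up to the bait. The BaitB array stayed between -0.11 and 0.34 there.

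The profiles of the 2 baits were alike in part. Over the 392 bins Pearson's r was 0.43 between the BaitA and BaitC arrays, 0.21 between BaitA and BaitB and 0.23 between BaitC and BaitB. Between the baits, over 57 bins, r was -0.68 for BaitA with BaitC, where one profile declines as the other climbs, and near 0 for either with BaitB. After each array's running median over 21 bins was taken away, r was 0.24 for BaitA with BaitC, 0.20 for BaitA with BaitB and 0.19 for BaitC with BaitB. The arrays carry the same probes, and bins of an array share its hybridisation and the decline from the bait, so these values are descriptions. On arms without a bait r between BaitA and BaitC was 0.384 on 2R, 0.419 on 3L and 0.415 on X. With the decline removed, the 3R baits were thus about as alike as either was with the 2L bait. The r of 0.43 over the stretch was close to that on other arms, but it was 0.098 over the 195 bins up to 1 Mb. With BaitB, r on those 3 arms was 0.359 to 0.364 for BaitA and 0.378 to 0.402 for BaitC, above the values in the stretch.

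The authors' deposited peaks, called on each array separately, were counted at a false discovery rate of at most 0.05. The stretch, with 392 of the 25695 bins, held 254 of the 3854 BaitA peaks, over 139242 bp. It held 338 of the 3588 BaitC peaks, over 217544 bp, and 55 of the 4434 BaitB peaks, over 23013 bp. From the start to BaitA there were 53 peaks with BaitA, 9 with BaitC and 1 with BaitB. From the crossover to BaitC there were 28 with BaitA, 73 with BaitC and 1 with BaitB. From BaitC to 1 Mb the counts were 42 with BaitA, 174 with BaitC and 14 with BaitB, in a zone longer than those before it. The lowest score of a counted peak was 4.86 with BaitA and 3.08 with BaitC on the authors' log2 scale, so the lists do not have the same threshold.

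Of the 254 BaitA peaks, 88 (34.6%) overlapped a BaitC peak by at least 1 bp, against 7.32% of BaitA peaks over the genome. Of the 338 BaitC peaks, 91 (26.9%) overlapped a BaitA peak, against 7.92% over the genome. Overlap with BaitB peaks was 3.54% of BaitA peaks and 3.85% of BaitC peaks in the stretch, against 8.74% and 7.69% over the genome. In the stretch the overlap was thus greater with the other 3R bait than with BaitB. The BaitB list held only 55 peaks over 23013 bp there, against 254 with BaitA and 338 with BaitC. Without the 20 kb around each bait, the shares with the other 3R bait were 35.0% of BaitA peaks and 27.5% of BaitC peaks. The part of peak number and spacing in these shares was not tested. They therefore do not show a preference for the other 3R bait. At a false discovery rate of at most 0.01 the shares fell to 15.7% of BaitA peaks and 5.80% of BaitC peaks.

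Among shared peaks, the one with the highest BaitA score overlapped CG9766, at 95165 to 95585, with 3.68 ± 0.14 in the BaitA array, 2.17 ± 0.41 in the BaitC array and -1.19 ± 0.19 in the BaitB array (SD over 8 probes). A peak at 62866 to 66843 covered most of the span of Gel, which encodes the actin-severing protein gelsolin, with 3.36 ± 0.22, 1.56 ± 0.63 and 0.13 ± 1.03 in the BaitA, BaitC and BaitB arrays (73 probes). Far from both baits, a shared peak at 684593 to 684807 lay inside opa, a zinc finger gene of embryonic segmentation, with 2.45 ± 0.10, 3.00 ± 0.32 and -0.65 ± 0.29 in these arrays, over 4 probes. A shared peak is one called in both 3R bait arrays, so its high levels in them follow from the choice. The BaitB array was below the limit at the peaks named here, but not at all shared peaks. Those in CG14642, at 68381 to 68906, and in Suv3, at 137900 to 138434, had 1.71 and 1.44 in the BaitB array.

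Beyond 1 Mb, 5 shared peaks were found. One, at 1208245 to 1208454, overlapped kkv, which encodes a chitin synthase, with 2.61 in the BaitA array, 2.63 in the BaitC array and 1.11 in the BaitB array. Another, at 1295816 to 1296120, lay in mRpL44, a mitochondrial ribosomal protein gene, with 2.19, 2.45 and 1.35 in the BaitA, BaitC and BaitB arrays. A peak in rtp at 1062220 to 1062499 had 2.31, 2.01 and 1.13 in these arrays. In each of these 3 the BaitB array was also above 1 SD unit. A peak at 1000291 to 1000825 that overlapped cno, the gene of the junction protein canoe, had 2.16, 1.47 and -0.79 in the BaitA, BaitC and BaitB arrays. The last, at 1437981 to 1438460 and outside any listed span, had 2.02, 1.24 and 0.19 in the BaitA, BaitC and BaitB arrays. In these 2 the BaitB array was below the limit.

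Genes were read by the mean level of the probes within 1 kb of their start sites. Only genes paired with a peak in some array are listed in the deposited tables, so genes without a peak are not counted. The stretch held 244 of the 12205 genes in the deposited peak-to-feature tables, and 76 of them were high in both arrays, against 1.03% of all genes. A further 63 were high with BaitA only, against 8.27% of all genes, and 23 with BaitC only, against 4.43%. Genes high in the BaitB array numbered 16, against 10.6% of all genes. The median over the 244 genes was 1.09 with BaitA, 0.77 with BaitC and 0.12 with BaitB.

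The order along the arm was that of the bins. From the start to the crossover, 39 of 55 genes were high in both arrays and 16 with BaitA only, and the BaitA level was higher for 53. From the crossover to 500 kb, 19 of 24 were high in both and 5 with BaitC only, and the BaitC level was higher for 23. From 500 to 1000 kb, 13 of 37 were high in both, 6 with BaitA only and 6 with BaitC only. Beyond 1000 kb, 5 of 128 were high in both, 41 with BaitA only and 12 with BaitC only. Every listed gene up to 500 kb was thus high in at least 1 of the 2 arrays, on a list that leaves out genes without a peak. So was each of the 98 bins up to 500 kb, which were taken by coordinate alone.

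BaitA overlaps the 5' end of the transcribed span of CG1092 (3R, 92675 to 93935, plus strand), and BaitC overlaps no gene span listed in the tables. CG1092 had 3.31 ± 0.40 in the BaitA array, 0.87 ± 0.93 in the BaitC array and 0.65 ± 0.85 in the BaitB array (SD over 41 probes). At its start sites it was high in the array of the bait it touches and below the limit in the others. Over its transcribed span it had 3.40, 1.38 and 0.40 in the BaitA, BaitC and BaitB arrays, and was thus past the limit with BaitC too.

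The crossover at 265 kb lies inside the transcribed span of CG14650 (263349 to 266574, plus strand). It shares a divergent start region with Lipt2 (262124 to 262829, minus strand), a gene named for a lipoyl transferase. Lipt2 had 1.79 ± 0.63 in the BaitA array, 1.67 ± 0.77 in the BaitC array and -0.04 ± 0.76 in the BaitB array, so that the arrays of both 3R baits were nearly level. CG14650 had 1.65 ± 0.64, 1.04 ± 0.92 and 0.45 ± 0.72 in the BaitA, BaitC and BaitB arrays. Over its transcribed span it had 1.41, 0.60 and 1.14 in these arrays, so BaitC was below the limit there and BaitB past it. Next on the BaitA side was another divergent start region, that of CG1074 and eIF3a (255840 to 259469, minus strand), which encodes a subunit of translation initiation factor 3. eIF3a had 1.56 ± 0.27, 1.44 ± 0.48 and -0.22 ± 0.97, and CG1074 had 1.43 ± 0.34, 1.81 ± 0.53 and 0.20 ± 1.07, in the BaitA, BaitC and BaitB arrays. The BaitA minus BaitC difference had opposite signs at the pair, and at each gene it was smaller than the larger of the SDs over probes.

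A step farther toward BaitA, CG31525 and srl (249186 to 252701, minus strand), the fly homologue of the PGC-1 coactivators of mitochondrial genes, leaned to BaitA. srl had 1.97 ± 0.41 in the BaitA array, 1.19 ± 0.52 in the BaitC array and -0.47 ± 1.04 in the BaitB array. CG31525 had 2.08 ± 0.35, 1.23 ± 0.51 and -0.19 ± 1.18 in the BaitA, BaitC and BaitB arrays. On the BaitC side, CG31522 (268468 to 273480, minus strand) had 1.83 ± 0.46, 2.12 ± 0.55 and 1.23 ± 0.70 in these arrays, and CG41463 had 1.56 ± 0.21, 1.51 ± 0.39 and 1.12 ± 0.32. At these start sites both were high in the BaitB array as well. Over their transcribed spans the BaitB level was -0.42 for CG31522 and -0.38 for CG41463. Over its span CG41463 leaned to BaitC, with 1.72 in the BaitA and 2.11 in the BaitC array. CG41464 (281973 to 284770, plus strand) was the nearest gene with a wide gap, at 0.77 ± 1.26 with BaitA, 2.62 ± 0.43 with BaitC and 0.51 ± 0.47 with BaitB.

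The genes with the greatest shared level over 20 kb from both baits lay mostly between the crossover and BaitC, and were led by the shared start region of CG31528 and CG32944. CG31528 had 2.22 ± 0.39 in the BaitA array, 2.34 ± 0.65 in the BaitC array and 0.30 ± 0.86 in the BaitB array. CG32944 had 2.36 ± 0.33, 2.15 ± 0.56 and 0.39 ± 0.80 in the BaitA, BaitC and BaitB arrays. The start of CG31528 lies 22.737 kb from the crossover on the BaitA side, and the 2 arrays were level there. CG41465, CG31523, CG41466 and Fip1, a subunit gene of the mRNA polyadenylation machinery, followed on the BaitC side, with 1.94 to 2.11 in the BaitA array and 2.81 to 3.20 in the BaitC array. CG9775, beyond BaitC, had 1.87 with BaitA and 3.15 with BaitC. In this group the BaitB level at the start sites was between -0.61 and 0.79, apart from CG31522, given above, at 1.23.

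The one gene of this group far on the BaitA side was hkb (171266 to 172225, minus strand), which encodes the zinc finger transcription factor huckebein of the embryonic termini. It had 2.98 ± 0.22 in the BaitA array, 1.95 ± 0.45 in the BaitC array and -0.57 ± 0.79 in the BaitB array (SD over 36 probes), although it lies 212.22 kb from BaitC and 79.305 kb from BaitA. Over its transcribed span the levels were 3.07 with BaitA, 1.99 with BaitC and -1.23 with BaitB. The signal of both 3R baits at hkb thus stood where the BaitB signal was below its median.

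The widest gaps toward BaitA were at genes between the start of the arm and BaitA, apart from CG1092 at the bait and CG1103 beyond it. Dsk, which encodes the drosulfakinin neuropeptides, had 2.72 ± 0.25 in the BaitA array, -0.03 ± 1.05 in the BaitC array and 0.35 ± 0.78 in the BaitB array. CG14636 had 2.85 ± 0.22, -0.05 ± 0.87 and -0.51 ± 1.12, and aux, which encodes the clathrin-uncoating cofactor auxilin, had 2.94 ± 0.22, 0.41 ± 0.79 and -0.23 ± 1.20, in the BaitA, BaitC and BaitB arrays. TwdlV, a cuticle protein gene of the Tweedle family beside BaitA, had 3.31 ± 0.26 with BaitA, 0.97 ± 0.43 with BaitC and -0.46 ± 1.15 with BaitB. CG14638, CG41459 and CG1103 had 2.68 to 3.21 with BaitA and 0.32 to 0.59 with BaitC. CG41459 was the only one of these above the limit in the BaitB array, at 1.16.

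The widest gaps toward BaitC were at genes near that bait, apart from the distant cas and HDAC3. CG41516 (371577 to 376761, minus strand) had 1.55 ± 0.18 in the BaitA array, 4.24 ± 0.31 in the BaitC array and 0.90 ± 0.42 in the BaitB array. Mur82C, named as a mucin-related gene, had 1.40 ± 0.24, 3.85 ± 0.55 and -0.82 ± 0.22, and CG14652 had 0.62 ± 0.11, 3.21 ± 0.28 and -1.08 ± 0.41, in the BaitA, BaitC and BaitB arrays. CG31526 and CG41467, read together, had 1.60 and 1.61 with BaitA, 4.02 and 3.86 with BaitC, and 1.25 and 0.40 with BaitB. CG9783 and CG32945 had 1.48 and 1.12 with BaitA and 3.43 and 3.17 with BaitC. Of these genes near BaitC, all but CG14652 were above 1 SD unit in the BaitA array too, so at these start sites the gap was between a high and a higher level. Over its transcribed span CG32945 had 0.16 with BaitA and 3.85 with BaitC.

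**Figure D5:**
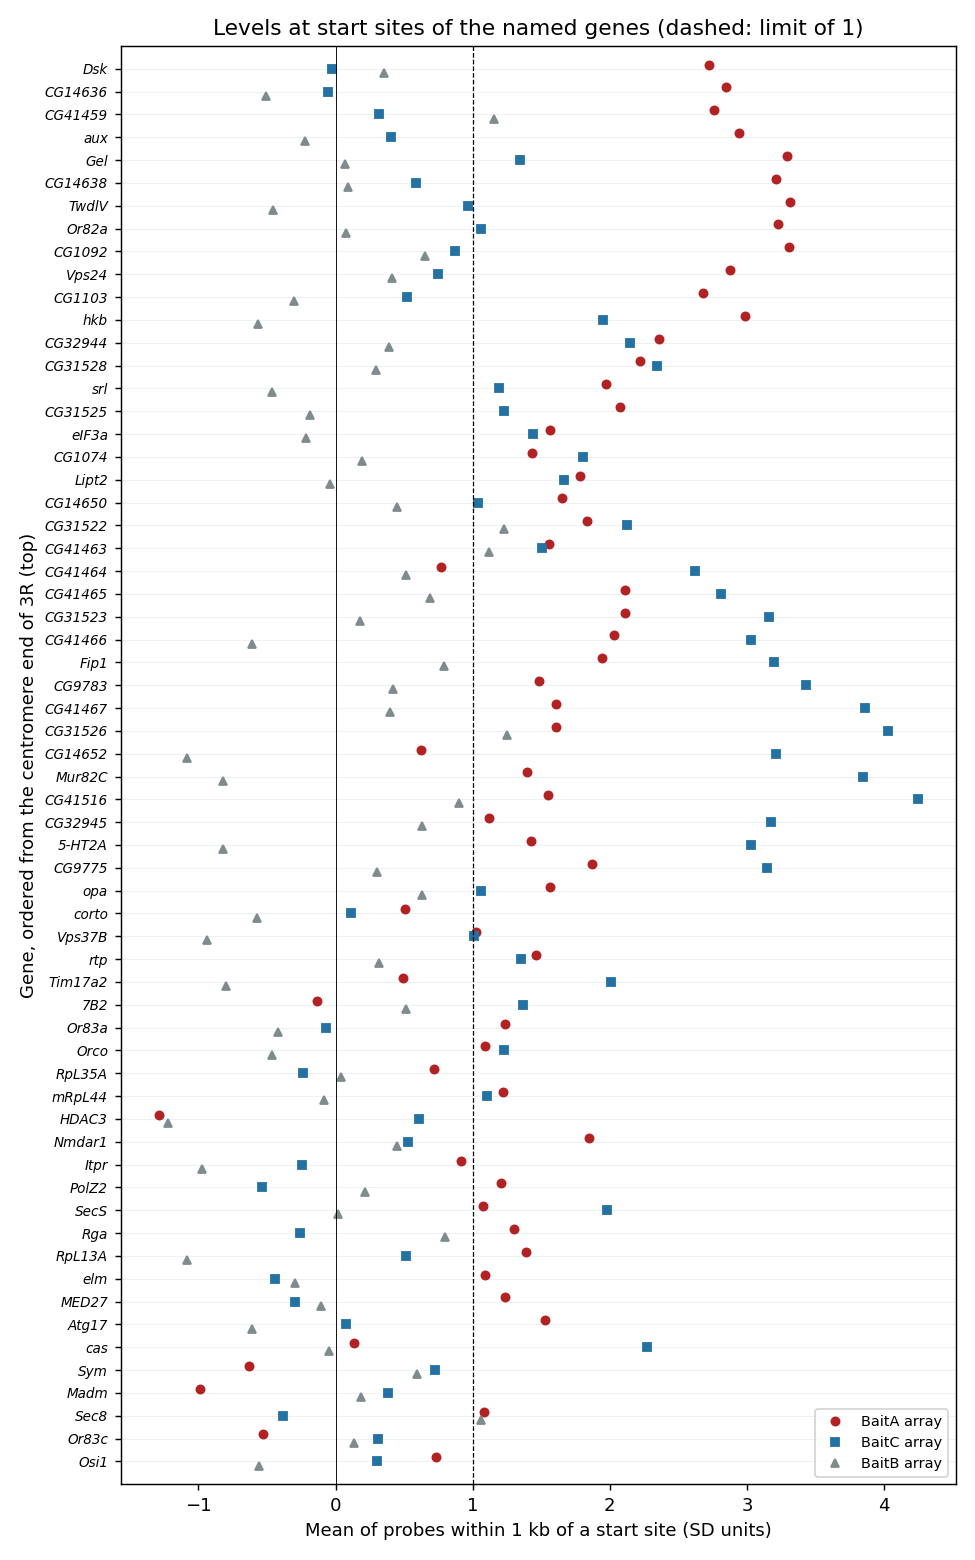
Mean level of the probes within 1 kb of a start site, in SD units, of the named genes in the BaitA, BaitC and BaitB arrays, ordered from the centromere end of 3R (top) to 2 Mb (bottom). BaitA levels lie above BaitC levels down to srl, except at CG31528, the levels then lie close together, BaitC levels lie above from CG41464 to CG9775, and beyond them most genes are below 2 in all 3 arrays, with cas at 2.27 in the BaitC array.

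Beyond 1000 kb, the 5 genes high in both arrays were rtp, mRpL44, Orco, SecS and Vps37B. Orco, which encodes the shared co-receptor of the odorant receptors, had 1.09 ± 0.69 in the BaitA array, 1.22 ± 0.98 in the BaitC array and -0.46 ± 0.85 in the BaitB array. rtp had 1.46 ± 0.57, 1.35 ± 0.84 and 0.31 ± 0.99, and mRpL44 had 1.22 ± 0.72, 1.11 ± 0.80 and -0.08 ± 1.25, in the BaitA, BaitC and BaitB arrays. SecS had 1.08 ± 0.68, 1.98 ± 1.85 and 0.02 ± 0.82. Vps37B, an ESCRT-I subunit gene, had 1.02 ± 0.60, 1.01 ± 0.54 and -0.94 ± 0.48. Of these 10 levels, that of SecS in the BaitC array was the furthest past the limit and had the largest SD over probes. Over the transcribed spans of Orco and SecS the BaitC level was below the limit, at 0.41 and 0.65, and over that of Vps37B both levels were, at 0.49 with BaitA and 0.99 with BaitC. The sign of the BaitA minus BaitC difference over the span was opposite to that at the start site for these 3 genes and for rtp.

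The outlying gene in the BaitC array was cas (1539272 to 1542334, minus strand), which encodes castor, a zinc finger factor of late-born neurons. It had 0.14 ± 1.01 in the BaitA array, 2.27 ± 1.26 in the BaitC array and -0.05 ± 0.87 in the BaitB array, 1157.1 kb from BaitC. Its bin, 1540001 to 1545000, had 0.65 with BaitA, 1.75 with BaitC and -0.13 with BaitB. Over the whole span of cas the levels were 0.66, 1.53 and -0.40 in the BaitA, BaitC and BaitB arrays, so the gap of -2.14 at the start site was -0.87 there. The next bin, 1545001 to 1550000, was also past the limit with BaitC, at 1.01, and the bin before, 1535001 to 1540000, was not, at 0.81.

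Other distant genes that leaned to BaitC were low or moderate. Tim17a2, of the family of mitochondrial inner membrane translocase subunits, had 0.49 with BaitA, 2.01 with BaitC and -0.80 with BaitB. 7B2, named for a chaperone of neuropeptide processing, had -0.13 with BaitA, 1.36 with BaitC and 0.51 with BaitB. At HDAC3, a histone deacetylase gene, the BaitC level stood apart from the other two: -1.29 ± 0.41 with BaitA, 0.61 ± 0.72 with BaitC and -1.22 ± 0.47 with BaitB. Madm and Sym, the latter encoding the polyadenylation factor symplekin, had -0.98 and -0.63 with BaitA and 0.38 and 0.73 with BaitC. At the start sites of these 3 genes neither array reached the limit. Over its transcribed span Sym had 0.17 with BaitA and 1.14 with BaitC, past the limit. Over that of 7B2 the levels were 0.77 with BaitA and 1.33 with BaitC, a narrower gap than at its start site.

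The genes beyond 1000 kb with the widest gaps toward BaitA had BaitA levels between 1.08 and 1.53. PolZ2, an accessory subunit gene of DNA polymerase zeta, had 1.21 ± 0.71 in the BaitA array, -0.53 ± 0.61 in the BaitC array and 0.21 ± 0.73 in the BaitB array. MED27, a Mediator subunit gene, and elm, with which it shares a start region, had 1.24 and 1.09 with BaitA and -0.29 and -0.44 with BaitC. Rga, a subunit gene of the CCR4-NOT deadenylase, had 1.30 with BaitA, -0.26 with BaitC and 0.79 with BaitB. Sec8, of the exocyst, had 1.08 with BaitA, -0.38 with BaitC and 1.06 with BaitB, and Atg17, an autophagy gene, had 1.53 with BaitA, 0.08 with BaitC and -0.61 with BaitB. Sec8 was as high with BaitB as with BaitA. Over transcribed spans the BaitA minus BaitC difference shrank to 0.11 for Rga and 0.56 for Sec8, and Atg17 turned to -0.04.

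Gene lists chosen by function had few members here. Of 4 developmental transcription factor genes, at their start sites, hkb and opa were high in both arrays, cas with BaitC only and corto in neither. opa had 1.56 ± 0.43 in the BaitA array, 1.06 ± 0.61 in the BaitC array and 0.63 ± 0.58 in the BaitB array, and corto, a chromatin factor gene that acts with Polycomb and trithorax genes, had 0.50, 0.12 and -0.58. Over its transcribed span corto had 0.21 with BaitA and 0.80 with BaitC. Over that of opa both levels were below the limit, at 0.93 with BaitA and 0.91 with BaitC. The list's median was 1.03 with BaitA, 1.50 with BaitC and -0.31 with BaitB, beside 1.09, 0.77 and 0.12 over all 244 genes. The 3 cytoskeleton and traffic genes all lie near BaitA: Gel had 3.29 with BaitA and 1.35 with BaitC, aux is given above, and Vps24, an ESCRT-III subunit gene, had 2.87 with BaitA and 0.75 with BaitC.

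Of 3 chemoreceptor genes, the odorant receptor gene Or82a beside BaitA had 3.22 in the BaitA array, 1.06 in the BaitC array and 0.08 in the BaitB array. Or83a had 1.23, -0.07 and -0.42 and Or83c had -0.53, 0.31 and 0.14 in the BaitA, BaitC and BaitB arrays, far from both baits. Over its span Or83a had 0.25 with BaitA and 0.57 with BaitC. The serotonin receptor gene 5-HT2A (448301 to 458649, plus strand), 63.049 kb from BaitC, had 1.43 ± 0.18 with BaitA, 3.03 ± 0.53 with BaitC and -0.82 ± 0.61 with BaitB. Nmdar1, a glutamate receptor subunit gene, had 1.85 ± 0.50 with BaitA, 0.53 ± 0.81 with BaitC and 0.45 ± 0.94 with BaitB, 1249.2 kb from BaitA. At 1.85 it was above every gene of the other lists beyond 1000 kb in the BaitA array, and over its whole span it had 0.83.

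The ribosomal protein genes RpL35A and RpL13A had 0.72 and 1.39 with BaitA, -0.24 and 0.52 with BaitC and 0.04 and -1.08 with BaitB, beside mRpL44 above. Over its span RpL35A had -0.20 with BaitA and -0.14 with BaitC. Itpr, the gene of the endoplasmic reticulum calcium channel, had 0.91 with BaitA, -0.24 with BaitC and -0.98 with BaitB, and Osi1, the first of the Osiris gene cluster, had 0.74, 0.30 and -0.56 in the BaitA, BaitC and BaitB arrays. Of RpL35A, RpL13A, Itpr and Osi1, RpL13A alone was past the limit, in the BaitA array.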

How the data were processed

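Per the labels, 4C products of 3 baits were hybridised to tiling arrays, 1 array per bait, so the number of arrays limits the precision. The deposited values are log2 ratios per probe; base 2 was assumed, and no label or header used here states how they were normalised. Per the file headers, the authors called peaks with NimbleScan; peak heights are on the log2 scale, and the deposited false discovery rate is a score that can exceed 1. Deposited medians were -0.16 (BaitA), -0.02 (BaitC) and -0.14 (BaitB).

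Levels were centred, divided by the SD and averaged in 5 kb bins of at least 20 probes (Python 3.11.15, numpy 2.4.6, pandas 2.3.3), tested on simulated data. Of 400 bins, 4 had no probe and 4 too few. Of 17767 transcript accessions, 16168 matched the RefSeq gene table of Release 6, used for names alone. Genes in the deposited tables are those paired with a peak in some array, and had 5 or more probes no farther than 1 kb from a start. The tables give transcript spans, not exons.

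Named genes were those overlapping a bait, the 6 nearest the crossover, the 8 with the greatest lower level of BaitA and BaitC over 20 kb from both baits, the 8 with the widest difference each way, the 5 of each kind beyond 1 Mb, and members of the lists. Named bins followed a like rule, and peaks named are those that lead or lie far out, chosen after their values were seen. The members and lists were chosen with earlier results of these data known. Alternatives changed the limit, scale, bin size, running mean, centring, false discovery rate and gene window.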

Additional observations from a re-analysis of the deposited data

How the results depend on the processing

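No paired analysis was possible because there is 1 array per bait, and leaving out a replicate was not possible either. Of 158 alternative values of the main results, 125 stayed within a set margin, 25 moved further and 8 changed sign. The margin was 1.5 times for a count, share or extent, 25 kb for the crossover and a fixed amount for a correlation. For a difference it was the spread over bins, or, on the log2 ratio and at matched distances, a change in its ratio to that spread. Some values could not move, such as peak counts under another overlap rule and bins high in both where the other array had to be below 0.5. With a limit of 1.5 SD units, 9.44% of bins were high in both arrays, 10.97% with BaitA only and 11.5% with BaitC only, and 27 genes were high in both. Where the other array had to be below 0.5, 8.93% were high with BaitA only and 1.53% with BaitC only. Division by the median absolute deviation gave 9.18% with BaitA only and 10.97% with BaitC only, a difference of 1.63 from the start to BaitA, a BaitA extent of 300.04 kb, and, at matched distances (a setting chosen after seeing the data), differences of -0.61, -0.40 and -0.42 at 0 to 20, 20 to 50 and 50 to 100 kb from the own bait. The log2 ratio put the crossover at 300 kb. On it, the BaitA minus BaitC difference was 5.91 from the start to BaitA, 4.49 from BaitA to the crossover, -0.95 from there to BaitC and 0.33 from BaitC to 1 Mb, where the sign turned. At matched distances up to 500 kb it was 2.91, 2.88, 2.61, 1.86 and 1.95. Division by each array's mean within 5 kb of its own bait, also chosen after seeing the data, gave 0.21, 0.22, 0.20 and 0.14 at the distances up to 200 kb. Of these matched-distance values, 7 changed sign, from reported differences between -0.16 and 0.02: those on the log2 ratio and by own-bait division at 0 to 20, 50 to 100 and 100 to 200 kb, and that by the median absolute deviation at 20 to 50 kb. Spearman's rho over the stretch was 0.573. A false discovery rate of at most 0.01 left 108 BaitA peaks, with 15.7% of BaitA peaks and 5.80% of BaitC peaks shared. At 0.2 there were 520 BaitA peaks, and 47.3% of BaitC peaks were shared. Of 61 named genes, 38 had a difference over the transcribed span of the same sign and within the SD over probes, and 9 changed sign: Atg17 at -0.043, Or83a at -0.32, RpL35A at -0.059, CG41463 at -0.39, corto at -0.59, Vps37B at -0.50, rtp at -0.15, Orco at 0.70 and SecS at 0.83. The cause of these changes was not tested beyond the change of scale or limit itself.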
